A study of Mus musculus with 6 samples.

Results

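Mitochondrial ribosomal protein (MRP) genes were examined in spermatocytes at the leptotene and zygotene stages (L/Z) of meiotic prophase. They were taken as all rows of the count table annotated as protein coding whose symbol starts with Mrpl or Mrps followed by a digit, which gave 78 of 54532 genes, 49 named Mrpl and 29 named Mrps. The spermatocytes were sorted by flow cytometry after staining with Hoechst dye from testes of mice at 12 days postpartum (dpp), and 3 control libraries (labelled wild type; littermates per the study's methods) were compared with 3 Eef1g-cKO libraries. In the cKO mice, on a C57BL/6J background, a floxed Eef1g allele loses exons 2 to 7 through Stra8-GFPCre, a Cre that is active from early differentiating spermatogonia onward, so deletion is aimed at germ cells and starts before meiosis. EEF1G is a subunit of the complex that reloads the cytosolic elongation factor eEF1A. The comparison asks how the RNA levels of these genes differ when EEF1G is lost. The labels do not say how many animals each library holds, so p-values measure only the spread between these libraries, and in bulk RNA fewer cells of a type and less RNA per cell cannot be told apart.

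The mitochondrial ribosome translates the mRNAs of the mitochondrial genome, which encode core subunits of the respiratory chain and ATP synthase. Its 2 rRNAs, mt-Rnr1 (12S) and mt-Rnr2 (16S), come from that genome, whereas all of its proteins come from nuclear genes, are made on cytosolic ribosomes and are imported. The large subunit carries the peptidyl transferase centre and the small subunit the decoding site. Some of the proteins descend from proteins found in all ribosomes, some from bacterial ribosomes, and others were acquired by mitochondria. By structure, 51 of the 78 genes encode proteins of the large subunit (Mrps18a and Mrps30 among them, in spite of their symbols) and 26 proteins of the small subunit. The remaining gene, Mrps36, encodes a protein now assigned to the 2-oxoglutarate dehydrogenase complex. The genes lie on 17 chromosomes, with at most 11 on one, and 0 lie on the X or Y chromosome.

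Sequence near the start of transcription was taken from RefSeq (GRCm38.p6), which had entries for 69 of the 78 genes, and covered 250 bases before to 50 bases after each start. The upstream stretches below belong to the 5 genes that passed the test described later and to Mrpl34, which had no read in any cKO library. Each runs 5′ to 3′ on the gene's strand, leaves out bases annotated as exon of any gene, and has motif matches in capitals.
Mrpl20 (chr4:155802758-155802877, plus strand): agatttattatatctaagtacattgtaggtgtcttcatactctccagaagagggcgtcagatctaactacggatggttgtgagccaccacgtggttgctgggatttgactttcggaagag
Mrps18c (chr5:100798599-100798626, plus strand): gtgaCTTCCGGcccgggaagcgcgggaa
Mrpl1 (chr5:96209961-96210080, plus strand): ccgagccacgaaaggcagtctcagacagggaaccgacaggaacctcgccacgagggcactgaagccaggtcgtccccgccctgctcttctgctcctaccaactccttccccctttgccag
Mrpl46 (chr7:78783090-78783118, minus strand): gcccctcgccggcccgcgttgcctcatgg
Mrpl41 (chr2:24975099-24975218, minus strand): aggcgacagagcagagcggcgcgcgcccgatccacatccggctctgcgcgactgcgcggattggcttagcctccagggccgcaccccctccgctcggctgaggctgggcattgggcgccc
Mrpl34 (chr8:71464806-71464925, plus strand): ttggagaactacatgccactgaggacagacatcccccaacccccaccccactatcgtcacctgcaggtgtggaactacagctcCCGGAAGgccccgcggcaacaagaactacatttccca

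Motifs of 3 regulators known at promoters of mitochondrial genes were searched on both strands. Some genes had more than 1 start, and a gene was counted if any of its windows matched. GCGCANGCG, the core bound by NRF1, occurred for 16 of the 69 genes (23.2%), against 19% of tested genes with an entry and 7.03% of all genes with one. CCGGAAG, the core bound by ETS factors such as GABPA, occurred in 26 (37.7%, against 23.9% and 9.93%), and it is the motif in capitals for Mrps18c and Mrpl34. AAGATGGCG, bound by YY1, occurred in 8 (11.6%, against 4.57% and 1.64%). At least 1 of the 3 was present for 42 genes (60.9%, against 41.1% and 16.5%). Genes for proteins of the cytosolic ribosome, 62 with an entry, had similar shares for the ETS core (38.7%) and for any of the 3 (56.5%). Their shares were 14.5% for the NRF1 core and 6.45% for the YY1 motif. The windows of Mrpl20, Mrpl1, Mrpl46 and Mrpl41 held none of these letters. Mrpl46 and Mrps11 start 41 bases apart in RefSeq and are transcribed in opposite directions, and the printed Mrpl46 stretch lies between those starts.

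Library totals ranged from 1265850 to 1834558 reads in control and from 763133 to 2617648 in cKO. Eef1g itself had 222, 226 and 212 CPM (counts scaled to the library size after edgeR's TMM factors) in control and 139, 151 and 119 in cKO, so the groups did not overlap, and edgeR's quasi-likelihood test over 8513 genes put the log2 fold change at −0.68 (SE 0.20, adjusted p = 0.029). These counts cover the whole gene, including exons outside the deletion. L/Z markers, 12 of 12 above 3 reads in at least 1 library of each group, summed to 10807 to 12165 CPM in control. In cKO they summed to 22613 to 29302 CPM. Rec8, which was not tested, had 0, 5 and 2 reads in control and 5, 8 and 2 in cKO. Sycp1 alone averaged 5101 and 10487 CPM. Of the 11 tested, 7 were higher at an adjusted p under 0.05 (63.6%, against 7.8% of all tested genes). Stra8 was lower (663, 436 and 426 against 280, 278 and 391 CPM), and Meiob, Spo11 and Prdm9 did not pass. Markers of spermatogonia summed to 1548 to 1782 against 716 to 848 CPM (12 genes, Lin28a and Nanos3 at 0 in cKO), of Sertoli cells to 156 to 477 against 26.3 to 91.4 (10 genes, Amh and Gata4 at 0 in cKO), and of peritubular and stromal cells to 161 to 295 against 23.2 to 74.1 (7 genes, none at 0). Markers of pachytene and later cells (11 genes) summed to 175 to 208 against 148 to 183 CPM, of Leydig cells (5 genes) to 8.40 to 10.7 against 1.57 to 6.47, and of blood and macrophages (8 genes) to 6.72 to 77.9 against 3.53 to 75.7. All but the pachytene and blood sums were separate between the groups. Within the pachytene list 4 genes were tested. Piwil1 was lower at an adjusted p under 0.05 (26.0, 11.5 and 16.8 against 0, 0.39 and 0 CPM), and Ldhc, Clgn and Tbpl1 did not pass. The part of these marker differences in the MRP values below was not tested.

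Loss of Eef1g was accompanied by small and mixed differences in MRP RNA. Of the 78 genes, 77 had at least 1 read and 70 passed the filter on low counts. Mrpl20, Mrps18c and Mrpl1 rose in cKO cells, Mrpl46 and Mrpl41 fell, and 65 of the 70 did not pass an adjusted p of 0.05. The 3 higher genes are 4.29% of the tested MRP genes, against a background of 7.8% of all tested genes higher, and the 2 lower genes are 2.86% against 6.01%. With TMM factors both shares lie below the background. With the study's limit of an absolute log2 fold change above 1 added, 0 were higher (background 3.42%) and 2 were lower (background 4.96%). Counted by the p-value before adjustment, 3 MRP genes passed 0.05 on the higher side (4.29%, against 14.3% of all tested genes) and 13 on the lower side (18.6%, against 13.2%). The split depended on scaling. With upper-quartile factors 1 of the 70 was higher (background 5.44%) and 5 were lower (background 7.51%). With library totals alone 0 were higher (background 3.91%) and 6 were lower (background 7.55%).

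Mrpl20 encodes a large subunit protein of bacterial origin that binds the 16S rRNA early in assembly (chr4:155802878-155809975, plus strand). It had 132, 192 and 175 CPM in control libraries and 292, 330 and 239 CPM in cKO libraries. Every cKO library lay above every control library, and the log2 fold change was 0.79 with an SE of 0.20 (edgeR quasi-likelihood test, adjusted p = 0.014).

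Mrps18c, on chr5:100798627-100804471 (plus strand), encodes a small subunit protein. Its levels were 139, 154 and 126 CPM in control and 222, 254 and 204 CPM in cKO, again without overlap. The log2 fold change was 0.71 with an SE of 0.20 (edgeR quasi-likelihood test, adjusted p = 0.024). It shares 23.2% of its exon bases with Gm43511, and whether the counting used strand is not given in the sources used here.

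Mrpl1 encodes the counterpart of bacterial L1, the protein of the mobile stalk at the ribosome's exit site (chr5:96209493-96266727, plus strand). Control libraries had 119.8, 118 and 74.4 CPM and cKO libraries 165, 188 and 195 CPM. The groups were separate, with a log2 fold change of 0.81 with an SE of 0.24 (edgeR quasi-likelihood test, adjusted p = 0.028). None of these 3 calls was made when control replicate 1, control replicate 3 or cKO replicate 2 was left out, and without control replicate 2 only that of Mrpl20 was.

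Mrpl46 showed the largest fitted decrease among the tested MRP genes. It encodes a protein of the large subunit that mitochondria acquired (chr7:78775236-78783531, minus strand). It had 102, 59.3 and 89.0 CPM in control and 18.6, 39.2 and 13.9 CPM in cKO, without overlap, for a log2 fold change of −1.71 with an SE of 0.39 (edgeR quasi-likelihood test, adjusted p = 0.006). Without control replicate 1 the call was lost (adjusted p = 0.052). Mrps11, the small subunit gene that starts beside it, had 26, 28 and 13 reads in control and 15, 51 and 0 in cKO. Its groups overlapped and its log2 fold change was −0.24 (SE 0.77). The 2 genes share 12.2% of the exon bases of Mrpl46, and the difference between their fold changes was not tested.

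Mrpl41 also encodes a large subunit protein specific to mitochondria (chr2:24974117-24975098, minus strand). Its levels were 55.7, 63.5 and 78.9 CPM in control and 29.9, 31.4 and 21.6 CPM in cKO. No cKO library reached a control library, and the log2 fold change was −1.23 with an SE of 0.35 (edgeR quasi-likelihood test, adjusted p = 0.023). This call was not made without any one of the 3 control libraries or without cKO replicate 1.

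**Figure D1:**
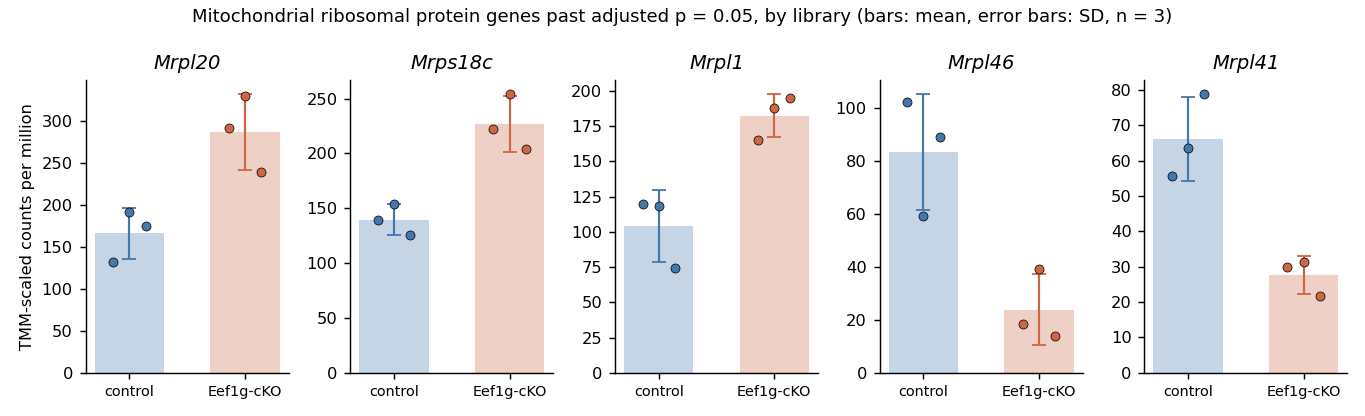
Levels in TMM-scaled CPM for the 5 MRP genes past an adjusted p of 0.05, with points for the 3 libraries of each group, bars for the mean and error bars for the SD. In Mrpl20, Mrps18c and Mrpl1 all cKO points lie above all control points, and in Mrpl46 and Mrpl41 all lie below.

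Across the 70 tested genes, log2 fold changes ran from −1.71 (Mrpl46) to 0.81 (Mrpl1), with a median of −0.25 (quartiles −0.67 and 0.08). The median over all tested genes was −0.05. Negative values were found for 48 of the 70 (68.6%), against 52.5% of all tested genes. With upper-quartile factors the median over all genes was −0.17, and with library totals it was −0.24, and the MRP median minus it was −0.20 and −0.19, against −0.20 with TMM factors. That difference varied with the filter on low counts. Without any filter it was −0.0035, with a median of −0.3025 over 77 MRP genes and −0.299 over 22130 genes. With at least 10 reads required in every library it was −0.29, with −0.2921 over 56 MRP genes and −0.0039 over 5567 genes. All 3 cKO libraries lay below all 3 control libraries for 16 of the tested MRP genes (22.9%; background 18.1%), and above them for 7 (10%; background 16.4%).

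Genes encoding the cytosolic ribosome give a reference in the same cells. Of 81 such genes (symbols Rpl or Rps followed by a digit), 76 were tested, 29 fell (38.2%) and 1 rose, with a median log2 fold change of −0.50. Their summed level went from 50592 ± 922 CPM (SD, n = 3) in control to 39254 ± 3124 CPM in cKO without overlap. MRP RNA as a percentage of cytosolic ribosomal protein RNA was 9.79%, 10.3% and 9.89% in control and 12.1%, 12.2% and 11.1% in cKO, higher in each cKO library than in any control library.

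**Figure D2:**
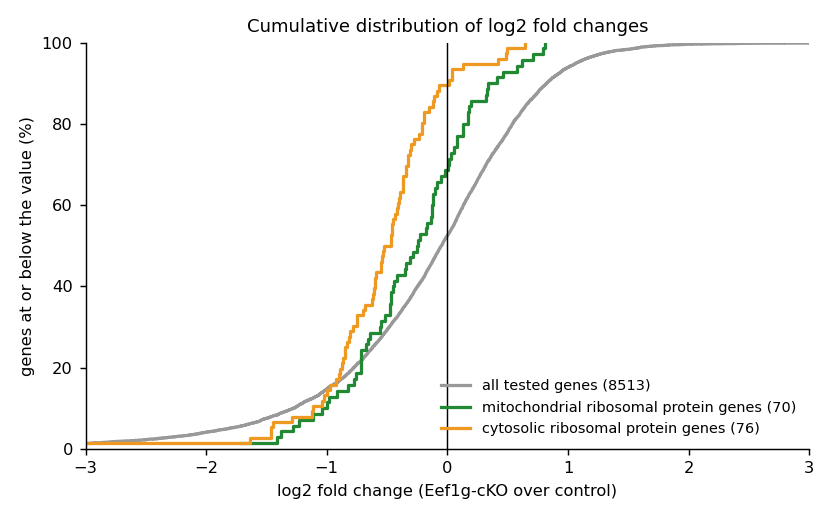
Cumulative distribution of log2 fold changes (x axis, cKO over control, shown from −3 to 3) as the percentage of genes at or below each value (y axis) for 8513 tested genes, 70 MRP genes and 76 cytosolic ribosomal protein genes. The MRP curve crosses 0 at 68.6%, between all genes at 52.5% and the cytosolic genes at 89.5%.

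Large subunit genes had 2 higher and 2 lower calls among 46 tested (4.35% each, against 7.8% and 6.01% of all tested genes). Their median log2 fold change was −0.15, with 29 negative (63%). Small subunit genes had 1 higher (4.35%) and 0 lower calls among 23 tested and a median of −0.35, with 18 negative (78.3%). At a p under 0.05 before adjustment, 5 of the 23 (21.7%) and 8 of the 46 large subunit genes (17.4%) were lower, against 13.2% of all tested genes. The summed level of large subunit genes was 3413, 3410 and 3309 CPM in control and 3319, 3531 and 2834 CPM in cKO. Small subunit genes summed to 1558, 1648 and 1703 CPM in control and 1373, 1618 and 1174 CPM in cKO. Both sums overlapped between groups, as did the ratio of large to small subunit CPM (2.19, 2.07 and 1.94 in control; 2.42, 2.18 and 2.41 in cKO).

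By origin, the 25 tested genes for proteins found in all ribosomes had 1 higher call (4%, against 7.8% of all tested genes). Their median log2 fold change was −0.42, with members as far apart as Mrpl1 (0.81) and Mrpl14 (−1.38, SE 0.65). The 17 of bacterial origin had 2 higher calls, Mrpl20 and Mrps18c (11.8%, against 7.8%). Their median was −0.12, and they included Mrpl36 at −1.41 (SE 0.52). The 27 specific to mitochondria held both lower calls (7.41%, against 6.01% of all tested genes) and had a median of −0.22. All of these classes are thus mixed in direction, and no difference between them was tested.

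Among the genes that were not called, Mrps16, Mrps24 and Mrps25, all of the small subunit, came closest on the lower side, with log2 fold changes of −0.72 (SE 0.24), −0.98 (SE 0.35) and −1.28 (SE 0.45). Their adjusted p values were 0.057, 0.069 and 0.069 by edgeR's quasi-likelihood test. All 3 had no cKO library as high as a control library, and all 3 were called lower with upper-quartile factors and with library totals. Mrps25 shares 69.8% of its exon bases with Nr2c2. On the higher side Mrpl57, Mrpl43, Mrpl11 and Mrpl15 had log2 fold changes of 0.62, 0.58, 0.46 and 0.34, each with all cKO libraries above all control libraries and none past the threshold. For 28 of the 65 uncalled genes the interval of 1.96 SE around the log2 fold change stayed within −1 to 1, so a change of more than 2-fold lies outside it. For the other 37 it reached −1 or 1, and a 2-fold change in at least 1 direction is not excluded by it.

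**Figure D3:**
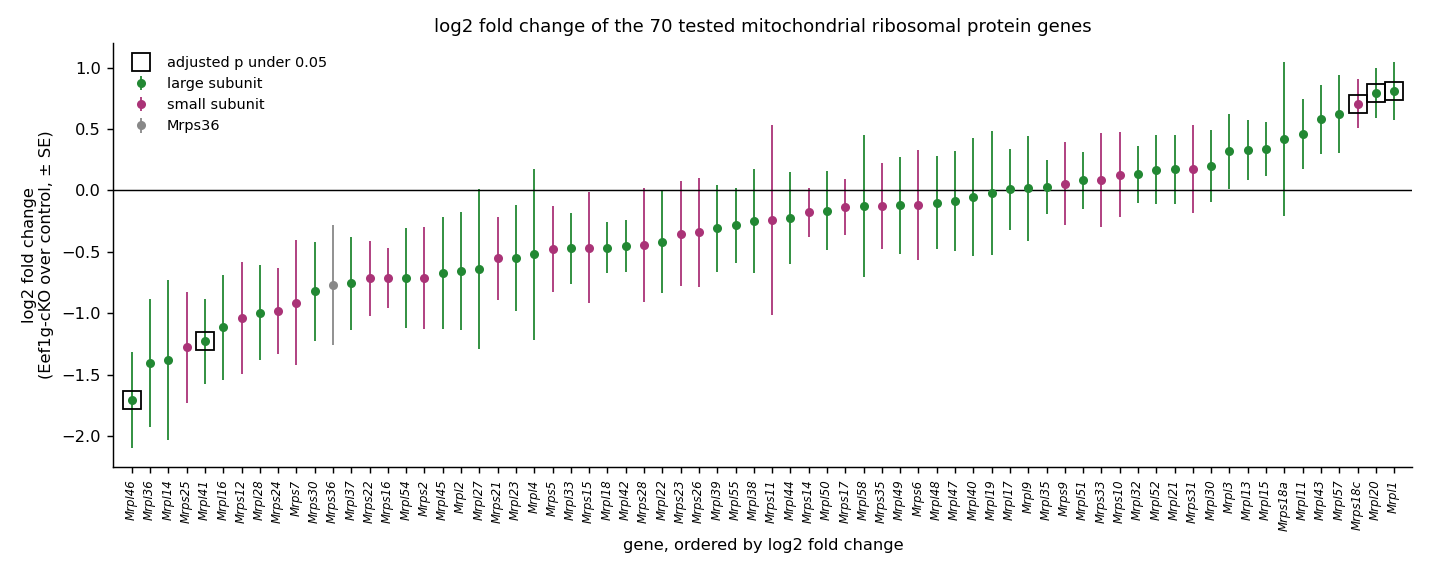
log2 fold change (y axis, cKO over control) with its SE for the 70 tested MRP genes, ordered by value along the x axis and coloured by ribosomal subunit, with squares around genes at an adjusted p under 0.05. Values run from −1.71 to 0.81, 48 of the 70 are negative, and both subunits occur at both ends.

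Levels were compared between genes per kb of the gene length in the count table. In control cells Mrps18c was the most abundant MRP RNA at 129.7 CPM per kb, followed by Mrpl18 (129), Mrpl20 (99.8), Mrps21 (88.9) and Mrpl52 (83.0). The median over the 78 genes was 20.9 CPM per kb. With the length of the principal GENCODE transcript in place of the full exon length, Mrpl42 led at 310.0 CPM per kb, followed by Mrpl33, Mrpl52, Mrps18c and Mrpl20, so the order, its top included, depends on the length used. Levels per kb in control and cKO ranked alike (Spearman's rho 0.892 across the 78 genes, which are not independent replicates).

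Mrpl18, whose product is a large subunit protein related to the 5S rRNA binding protein of other ribosomes, had 170.2, 192 and 179 CPM in control and 136, 115 and 144 CPM in cKO. All cKO libraries were lower, but the log2 fold change of −0.47 (SE 0.21) did not pass the test. With library totals alone it was called lower (−0.66, adjusted p = 0.047, edgeR quasi-likelihood test). Mrps21 encodes a small subunit protein with a bacterial counterpart. It had 55.0, 68.8 and 73.3 CPM against 29.1, 51.8 and 54.1 CPM, with no overlap and a log2 fold change of −0.56 (SE 0.34). Mrpl52, a mitochondria-specific large subunit gene, had 84.7, 94.5 and 96.8 CPM in control and 80.9, 83.1 and 153 CPM in cKO, where 1 library lay above control and the other 2 below it. By full exon length, the lowest tested genes in control were Mrps18a at 3.03, Mrps10 at 5.63 and Mrpl4 at 5.65 CPM per kb. By principal transcript length they were at 12.6, 44.7 and 11.5 CPM per kb, and Mrps10 ranked 29 of 78. Mrps10, a small subunit gene, had 35.9, 53.5 and 47.0 CPM in control and 63.1, 49.4 and 35.5 CPM in cKO. Mrpl4, whose product lines the exit tunnel region, had 26, 20 and 25 reads in control and 11, 45 and 1 in cKO. Both sets of values overlapped.

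The 3 Mrps18 paralogs are all related to the bacterial protein S18, although Mrps18a and Mrps18b were counted above among the proteins specific to mitochondria, and they take different places in the mitochondrial ribosome. Mrps18c, as given above, rose. Mrps18a, whose protein sits in the large subunit, had 11.4, 13.6 and 8.40 CPM in control and 8.09, 23.1 and 12.4 CPM in cKO, with overlap and a log2 fold change of 0.42 (SE 0.63). Mrps18b, in the small subunit, had 6, 3 and 0 reads in control and 0 in each cKO library, too few for a test. Per kb in control cells the paralogs were at 129.7, 3.03 and 0.98 CPM in that order by full exon length, and at 219, 12.6 and 1.90 by principal transcript length.

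The other 7 untested genes also had too few reads to pass the filter on low counts. The limit of detection was set at 3 reads per library. Mrpl34, the counterpart of a small bacterial large subunit protein, had 32, 13 and 10 reads in control libraries and 0, 0 and 0 in cKO, at least 4.47-fold lower when cKO libraries are set at 3 reads each. Without control replicate 1 this bound was 2.26-fold. It passed the test as lower when no low-count filter was used. Mrpl10, which anchors the stalk that binds translation factors, had 9, 8 and 9 reads against 2, 3 and 0, at least 1.96-fold lower on the same basis. Mrps27, a small subunit protein with RNA-binding repeats, had 14, 25 and 9 reads against 6, 2 and 0. In all 3 the groups did not overlap in CPM. Mrpl12, the stalk protein partner of Mrpl10, had 34, 15 and 11 reads against 5, 14 and 2, which did not overlap in CPM. Mrpl24 had 10, 3 and 16 against 7, 12 and 0, which did. All cKO libraries lay below all control libraries for 18.1% of the 8513 tested genes. That share was not computed over untested genes, so these separations at low read numbers are not read as decreases.

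Mrpl53 had 0 reads in all 6 libraries and Mrps34 had 1 read, in 1 control library. For these genes 88.0% and 77.8% of exon bases are shared with other annotated genes (Ccdc142os and Gm42688 for Mrpl53; Mapk8ip3 and Nme3 for Mrps34), and reads in shared bases may not have been assigned, so their values do not measure their expression. Of the 8 untested genes, 7 share exon bases with another gene, against 26 of the 70 tested. Over all 78, 33 share some, and Mrpl53, Mrps34 and Mrps25 share over 50%. The counts of Mrpl23, Mrpl48 and Mrps36 are also uncertain, because processed pseudogenes of each are annotated. Mrpl23-ps1 had 10 to 37 reads per library and Mrpl48-ps 5 to 28.

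**Figure D4:**
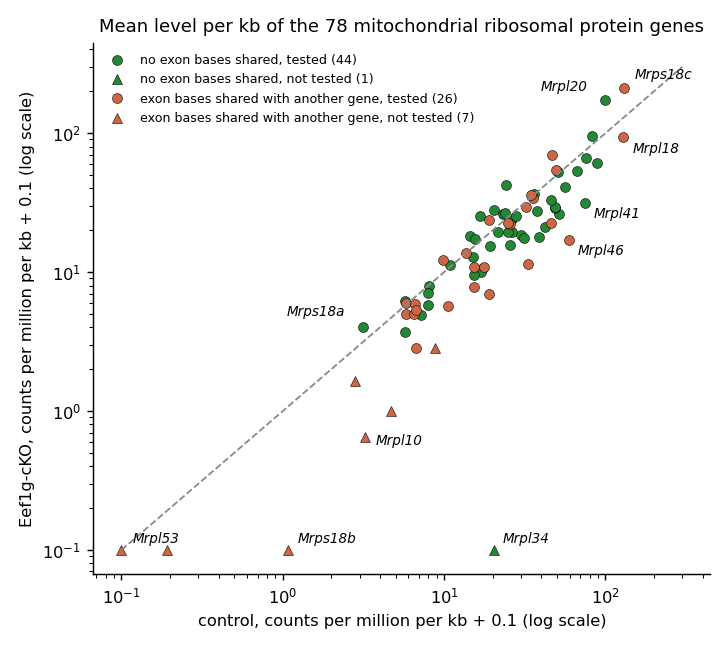
Mean CPM per kb plus 0.1 in control (x axis) and cKO (y axis), both on log scales, for the 78 MRP genes, with triangles for untested genes and colour for shared exon bases. Tested genes lie along the line of equal levels, and Mrpl34 lies at 0 in cKO with 20.2 CPM per kb in control.

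The size of the difference varied with read number and base composition. Of the 35 tested MRP genes with a mean above 86.2 reads, 19 had a positive log2 fold change and the median was 0.03. Of the 35 at or below it, 32 were negative and the median was −0.48. All tested genes split at the same read number had medians of 0.21 (3466 genes) and −0.29 (5047 genes). By mean CPM in control alone, Spearman's rho with the log2 fold change was 0.29 across the 70 MRP genes. Across 8508 tested genes it was 0.17. For MRP genes with a transcript GC content above 49.8% the median was −0.47, for those at or below it −0.12, set against −0.30 and 0.11 for all tested genes split there. Read number and GC content therefore moved with the fold change among MRP genes as they did among all genes, and their part in the MRP values was not tested beyond an added fit with a GC offset, which called Mrpl20, Mrps18c and Mrpl46 alone.

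As a share of all reads, MRP genes took 0.517%, 0.530% and 0.539% in control and 0.447%, 0.504% and 0.341% in cKO, lower in each cKO library. After TMM scaling they summed to 4998, 5100 and 5063 CPM in control (mean 5053 ± 51.6, SD, n = 3) and 4726, 5176 and 4014 CPM in cKO (mean 4639 ± 586). These scaled sums overlapped, cKO replicate 2 being the highest of the 6 libraries and cKO replicate 3, the shallowest, the lowest. The number of MRP genes with at least 1 read was 76 in each control library and 74, 74 and 70 in cKO.

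The RNAs that this ribosome is built on and translates were measured in the same libraries. The 13 mRNAs of the mitochondrial genome summed to 13803 ± 2865 CPM (SD, n = 3) in control and 7172 ± 2099 in cKO, lower in each cKO library. Among the 11 tested, 6 fell (54.5%, against 6.01% of all tested genes) and 0 rose (against 7.8%), with a median log2 fold change of −0.82. The rRNA mt-Rnr1 had 16174 ± 3003 CPM in control and 11458 ± 2804 in cKO, and mt-Rnr2 59076 ± 3656 and 54623 ± 16536. Both rRNAs overlapped between groups and did not pass the test.

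**Figure D5:**
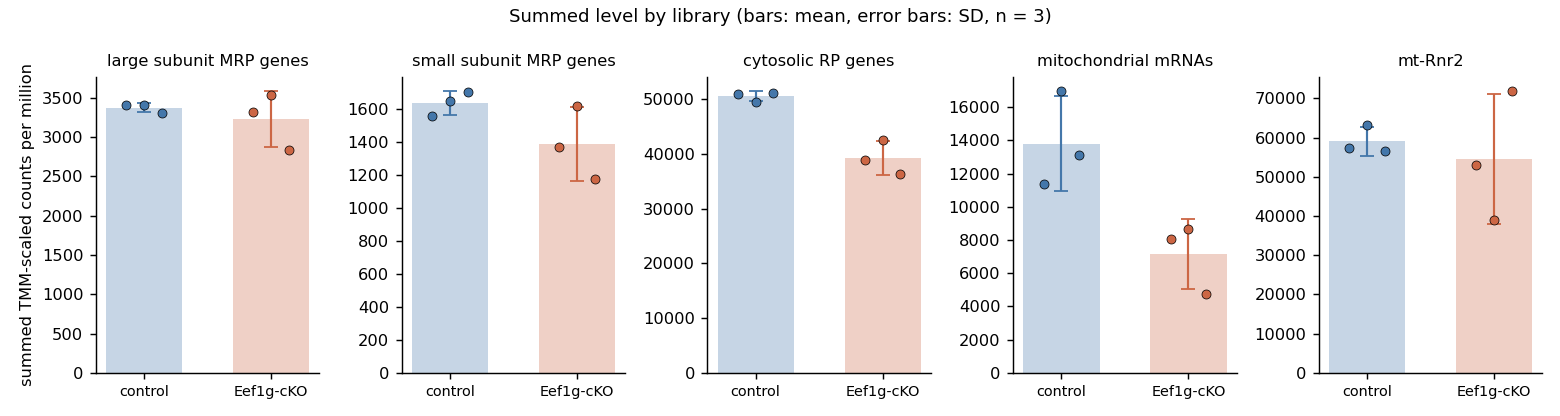
Summed TMM-scaled CPM by library (points), with bars for the mean and error bars for the SD of 3 libraries, for large and small subunit MRP genes, cytosolic ribosomal protein (RP) genes, mitochondrial mRNAs and mt-Rnr2. Control and cKO points overlap for both MRP subunits and mt-Rnr2 and are separate for cytosolic RP genes and mitochondrial mRNAs.

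Other proteins of the mitochondrial ribosome carry different symbols. Of 5 on the list used, 4 were tested and 1 was higher (25%, against 7.8% of all tested genes). Chchd1, a small subunit protein, had 146 ± 24.5 CPM in control and 228 ± 27.4 in cKO. It rose by 0.65 on the log2 scale (SE 0.21, edgeR quasi-likelihood test, adjusted p = 0.044). Dap3, a GTP-binding small subunit protein also studied in apoptosis, had 173 ± 34.9 CPM in control, the highest of the list there before division by length, and 131 ± 32.4 in cKO and was not called. Of 15 mitochondrial translation factors and mRNA-binding proteins 12 were tested, and 0 were higher and 0 lower by edgeR (background 7.8% and 6.01%). Before adjustment, 1 passed 0.05 on the higher side (8.33%, against 14.3% of all tested genes) and 0 on the lower (against 13.2%). That 1 was Mtif2, which places the initiator tRNA (71.1 ± 5.88 CPM in control and 130.2 ± 51.0 in cKO). The highest CPM in control, not divided by length, were those of Lrpprc, which stabilises mitochondrial mRNAs (169 ± 32.6 and 159 ± 61.7 CPM), and of Guf1, a translational GTPase (76.9 ± 10.9 and 60.5 ± 13.6 CPM). Of 28 ribosome assembly and rRNA modification factors 22 were tested, again with 0 calls in either direction. Unadjusted, 1 was higher (4.55%, against 14.3% of all tested genes) and 3 were lower (13.6%, against 13.2%). The highest CPM in control, again not divided by length, were those of Mterf3, which binds mitochondrial DNA and rRNA (129.8 ± 25.9 CPM in control and 102 ± 27.9 in cKO), and of Gtpbp10, a GTPase of large subunit assembly (119 ± 3.51 and 134 ± 67.0 CPM).

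Of 9 genes for mitochondrial transcription and genome maintenance, 8 were tested and 0 were called in either direction. Unadjusted, 1 was higher and 1 lower (12.5% each, against 14.3% and 13.2% of all tested genes). Ssbp1, the mitochondrial single-stranded DNA binding protein, had 264 ± 33.0 CPM in control and 179 ± 63.3 in cKO, and Tfam, which packages and transcribes mitochondrial DNA, 72.3 ± 5.86 and 65.3 ± 10.7. Of 11 factors known at promoters of mitochondrial genes, 7 were tested and 1 was higher (14.3%, against 7.8% of all tested genes). Gabpa, the DNA-binding subunit of the ETS factor GABP, had 171 ± 33.5 CPM in control and 282 ± 49.7 in cKO and rose by 0.72 on the log2 scale (SE 0.21, edgeR quasi-likelihood test, adjusted p = 0.026), and the others were not called. Yy1 had 226 ± 46.5 CPM in control and 304 ± 116 in cKO.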

How the data were processed

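Full-length cDNA was amplified from sorted cells and sequenced as paired-end reads without molecular identifiers. The detection limit of 3 reads and the fold bounds set from it therefore cover counting error only. The SE of a log2 fold change also includes the spread between libraries. The authors used fastp, HISAT2 (GRCm38) and featureCounts; the deposited values are raw counts, and strand and multi-mapping settings are not given in the sources used here. Counts were tested with edgeR 4.0.16 in R 4.3.3 (TMM, filterByExpr with minimum count 10 and minimum total 15, robust quasi-likelihood F test, genotype as the only term, Benjamini-Hochberg adjustment over 8513 genes), and the procedure was tested on simulated data. Alternatives used DESeq2 1.42.0, limma 3.58.1, other scalings and filters, and omission of single libraries. Exon sharing, transcript length and GC content came from GENCODE vM21 (73 of 78 MRP genes with the same start and end). RefSeq promoter entries were not used here for Mrpl4, Mrpl13, Mrpl15, Mrpl19, Mrpl38, Mrpl54, Mrps28, Mrps34 and Mrps35. The MRP genes and lists were chosen with earlier results of these data known. Values by library were given for Eef1g, called MRP genes, the 5 highest and 3 lowest tested per kb in control, genes at the detection limit and the Mrps18 paralogs; Mrps11 and other untested or near-threshold genes were named after their values were seen. Pathway genes were named where called or as the highest CPM of their list in control (Mtif2 was named after its value was seen). The labels give no batch.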

Additional observations from a re-analysis of the deposited data

How the results depend on the processing

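Calls depended on scaling, filter and test. Higher and lower MRP genes numbered 3 and 2 of 70 as reported, beside 7.8% and 6.01% of all tested genes. They numbered 1 and 5 with upper-quartile factors (all genes 5.44% and 7.51%) and 0 and 6 with library totals (3.91% and 7.55%). With at least 10 reads required in every library they numbered 1 and 5 of 56 (8.78% and 7.2%). DESeq2 gave 4 lower (7.19% of all tested genes), limma-voom 7 (8.07%) and an unadjusted p under 0.05 gave 13 (13.2%). A GC content offset, chosen after seeing the data, gave 1 lower (5.3%). With the fold change limit 0 were higher (3.42% of all tested genes). Leaving out 1 library gave 0 to 3 higher and 0 to 5 lower, 0 of either without control replicate 1. Of all tested genes those fits called 4.08% to 8.57% higher and 2.52% to 6.86% lower. The median log2 fold change was −0.43 with library totals and −0.47 to −0.21 with 1 library left out. Its distance from the all-gene median was −0.39 without cKO replicate 2. Mrpl52 turned negative with library totals (−0.043) and limma-voom (−0.076), and ran from −0.13 (without cKO replicate 3) to 0.35 with 1 library left out. Mrps18a ran from −0.14 (without cKO replicate 2) to 0.74. Eef1g kept its direction but lost its call without the low-count filter (−0.64, adjusted p = 0.084) and with the GC offset (−0.52, adjusted p = 0.10), and also in 4 of the 6 fits with 1 library left out, which ranged from −0.75 to −0.56. With the replicate number as a replicate block, 1 MRP gene was lower (4.43% of all tested genes) and Eef1g was at −0.69 (edgeR quasi-likelihood test, adjusted p = 0.058). Same-numbered libraries did not deviate together (correlations −0.04, 0.02 and −0.05). With 3 libraries per group, this does not settle whether the numbers pair them. The cause of these shifts was not tested. Depth limits genes with few reads: 13 tested MRP genes averaged under 50.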
